A study of Mus musculus with 2 samples.

Results

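The 10 genes described here are Slc2a1, Hk2, Gpi1, Pfkp, Pgk1, Ldha, Pdk1, Bnip3, Vegfa and Angptl4, chosen by symbol as genes of glycolysis and of the hypoxia response among the 31053 features of the count matrices. Each symbol matched 1 feature, and all 10 passed the expression filter of the test. They were read in wild-type mouse skin of strain C57BL/6;CD1 at postnatal day 32, in anagen, when follicles grow a new hair. Follicle stem cells had been sorted by fluorescence, using the surface protein CD34 together with a nuclear reporter, H2BGFP, that the keratin 14 promoter drives and so marks the basal epithelium. Both 10x Chromium libraries (3′ kit) are replicates of that single group, so the only comparisons are between kinds of cells within each library. The p-values below measure how far differences between kinds of cells vary between these 2 libraries, after their overall offset is removed. The labels do not say whether the libraries came from separate animals, so that spread may be technical.

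Glucose enters keratinocytes through facilitative transporters, is phosphorylated by hexokinases and is broken down to pyruvate, which either becomes lactate or enters the mitochondrion. When oxygen falls, the transcription factor subunits HIF-1α (Hif1a) and HIF-2α (Epas1) escape degradation, bind promoters through the core letters ACGTG or GCGTG and raise many genes of this route, together with genes of vessel growth and of mitochondrial turnover. The lower anagen follicle is a rapidly dividing epithelium long known for making much lactate from glucose. Several of these genes also answer to other inputs: Angptl4, for example, is a target of lipid-sensing and glucocorticoid receptors.

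Cells that passed the rule, a minimum of 1000 genes and a maximum of 10% mitochondrial UMIs (unique molecular identifiers, 1 for each captured transcript), numbered 3918 in replicate 1 and 3041 in replicate 2, with medians of 9955 and 9797 UMIs. Keratinocytes were assigned to 8 states by marker genes, each called here a gate and named for its leading markers, and 66.3% and 73.0% of keratinocytes entered one. A cell was set apart as G2/M or S by at least 4 of 12 markers of that phase (26.4% and 26.5% in G2/M, 12.3% and 12.2% in S), and the rest are called non-cycling. Non-cycling cells numbered 36 and 213 in the Krt24/Grem1 gate, 299 and 214 in Gdf10/Nppc, 555 and 180 in Wfdc18/Pthlh, 301 and 299 in Fgf5/Fbln5, and 294 and 218 in Edn2/Dio3. The smaller gates were Krtdap/Sostdc1 with 27 and 119 cells, the inner root sheath keratins Krt25/Krt71 with 21 and 21, and Defb6/Krt79 of the upper follicle with 59 and 62. Stem cell genes of the bulge that no gate used (Cd34, Lgr5, Krt15, Sox9, Lhx2, Nfatc1, Tcf7l2) summed to 19046 and 27833 CPM (UMIs of the summed cells, scaled to a common total) in the Krt24/Grem1 gate, above the 2829 to 12521 of the other 7 gates. The Krt24/Grem1 and Krtdap/Sostdc1 gates drew 87.1% and 92.2% of their cells, cycling ones included, from replicate 2. Gates also carried markers of other gates. Edn2/Dio3 held 1026 and 885 CPM of the Fgf5/Fbln5 markers beside 809 and 848 of its own. Fgf5/Fbln5 held 289 and 268 of the Edn2/Dio3 markers beside 2864 and 2519 of its own. Krt24/Grem1 held 2051 and 1287 of the Wfdc18/Pthlh markers beside 1394 and 2489 of its own. The libraries shared 11 barcodes, 3 of them among kept cells.

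Promoters of 9 of the 10 genes were matched in RefSeq (GRCm38.p6), each as 300 bases from 250 before to 50 after an annotated start. They were searched on both strands for the HIF core in the 2 spellings named above. The spelling that starts with A overlaps its own complement in the palindrome CACGTG, which counts on each strand. At least 1 match stood in 9 of the 12 start windows of these genes, where 43.8% of all 32851 promoter windows of the same length held one. Of the following 4 windows, Hk2 and Slc2a1 are shown because both were called higher in the Krt24/Grem1 gate, Ldha because it was not, and Bnip3 because it was called there from replicate 2 alone; capitals mark the matches on either strand.
Hk2, chr6:82774405-82774704, minus strand: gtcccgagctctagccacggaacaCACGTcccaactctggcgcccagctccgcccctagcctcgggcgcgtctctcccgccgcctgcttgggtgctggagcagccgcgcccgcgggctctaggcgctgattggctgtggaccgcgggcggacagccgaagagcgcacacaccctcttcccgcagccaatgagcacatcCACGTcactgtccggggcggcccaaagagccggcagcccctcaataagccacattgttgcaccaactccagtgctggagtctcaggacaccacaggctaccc
Slc2a1, chr4:119108495-119108794, plus strand: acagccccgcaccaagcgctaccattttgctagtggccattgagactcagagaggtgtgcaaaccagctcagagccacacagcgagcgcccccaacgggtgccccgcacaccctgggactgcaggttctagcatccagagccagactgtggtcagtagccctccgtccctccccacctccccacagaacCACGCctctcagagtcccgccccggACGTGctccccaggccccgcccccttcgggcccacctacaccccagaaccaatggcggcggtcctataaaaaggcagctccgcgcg
Bnip3, chr7:138909457-138909756, minus strand: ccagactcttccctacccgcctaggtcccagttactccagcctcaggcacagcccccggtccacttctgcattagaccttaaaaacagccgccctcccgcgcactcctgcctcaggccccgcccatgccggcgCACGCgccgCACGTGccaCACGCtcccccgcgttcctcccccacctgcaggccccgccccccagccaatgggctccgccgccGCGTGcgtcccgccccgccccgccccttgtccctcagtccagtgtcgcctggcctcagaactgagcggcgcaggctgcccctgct
Ldha, chr7:46845554-46845853, plus strand: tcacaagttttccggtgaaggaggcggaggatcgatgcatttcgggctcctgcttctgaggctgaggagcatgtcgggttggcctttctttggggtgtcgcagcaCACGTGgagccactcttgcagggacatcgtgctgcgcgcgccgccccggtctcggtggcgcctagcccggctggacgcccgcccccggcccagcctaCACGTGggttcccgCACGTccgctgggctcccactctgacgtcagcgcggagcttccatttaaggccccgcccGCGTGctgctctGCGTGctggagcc
Ldha held 5 matches of ACGTG and 2 of GCGTG, Bnip3 2 and 3, Slc2a1 1 and 1, and Hk2 2 of ACGTG alone. Pfkp held 4 of GCGTG and Pgk1 2 of ACGTG, while the Gpi1 window, the second Pdk1 window and the first Vegfa window held none. These are letter matches and show nothing about binding.

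Across the 8 non-cycling gates the 10 genes did not all vary together. Hk2 and Slc2a1, which take up and trap glucose, were highest in the Krt24/Grem1 gate, where Angptl4 was lowest. Angptl4 was highest in the Edn2/Dio3 and Fgf5/Fbln5 gates, where Hk2 was lowest. Of the enzymes further down the route, Gpi1, Pgk1 and Ldha varied less. Pfkp did not, with a 3.37-fold range of gate means beside 3.39-fold for Slc2a1. A joint test over the 8 gates (edgeR quasi-likelihood, Benjamini-Hochberg adjusted over 10109 genes, threshold 0.05) called 8 of the 10 genes, where it called 49.3% of all genes tested, and did not call Pdk1 (adjusted p = 0.371) or Vegfa (adjusted p = 0.421).

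**Figure D1:**
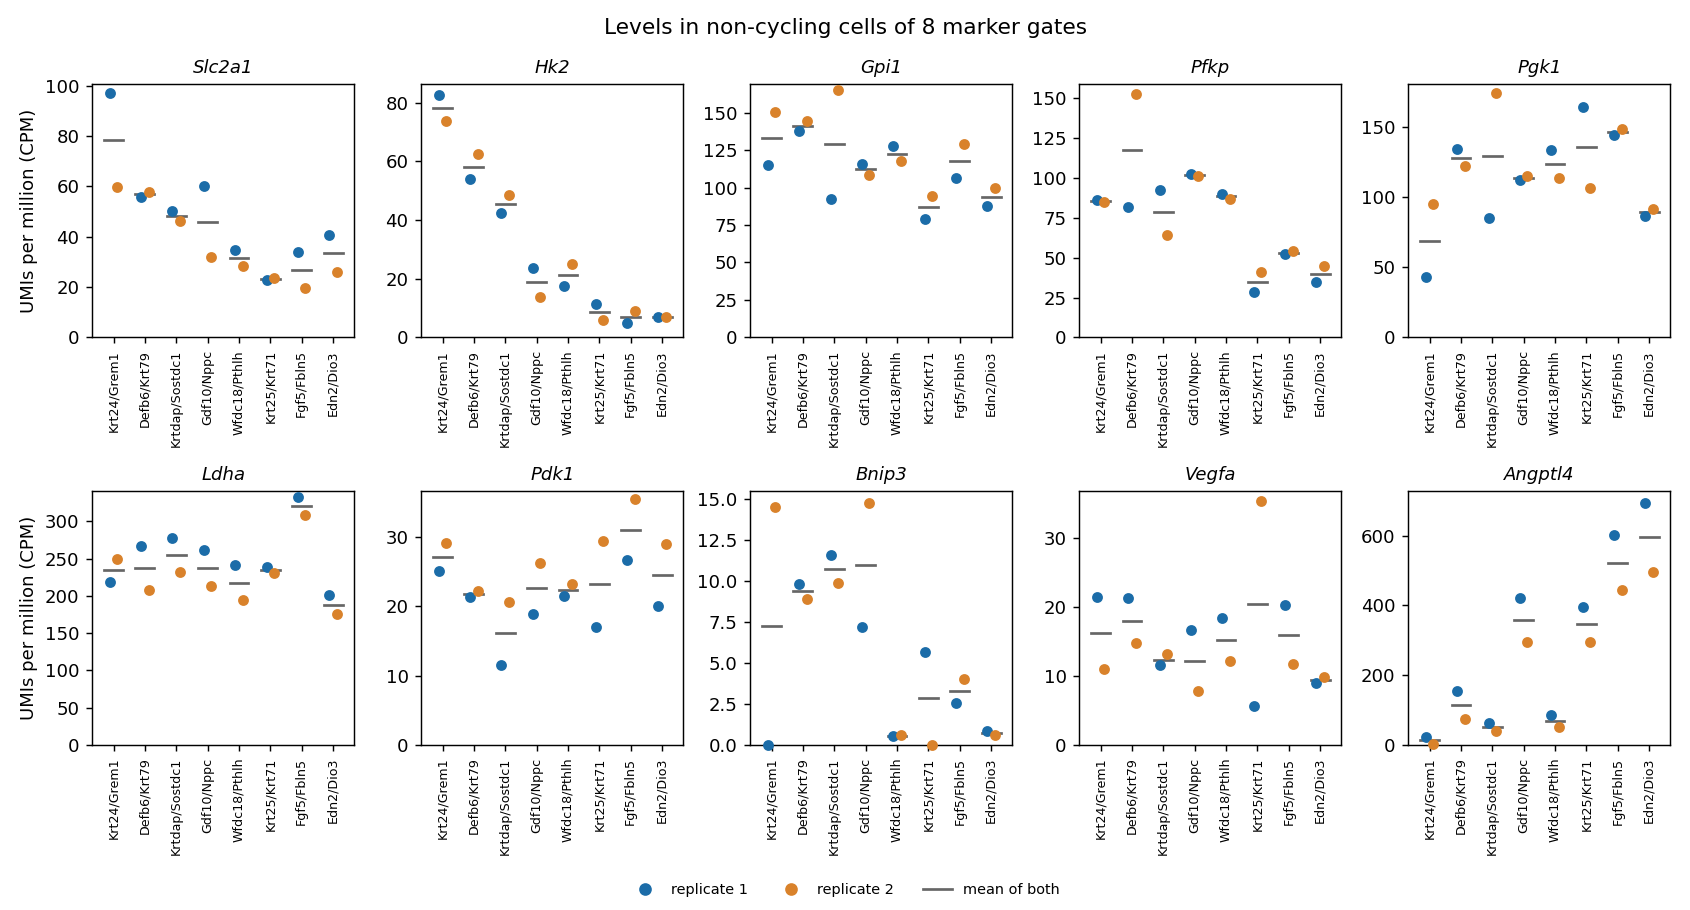
Level of each gene in CPM (vertical axis from 0, own scale per gene) in non-cycling cells of each of the 8 marker gates; points are the 2 libraries and bars their mean. Hk2 falls from 82.6 and 73.8 CPM in the Krt24/Grem1 gate to 7.0 and 7.0 in Edn2/Dio3, and Angptl4 runs the other way, from 21.6 and 4.07 to 692.8 and 496.8.

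Slc2a1 (ENSMUSG00000028645, chromosome 4, 119108711 to 119137983, plus strand, GRCm38) encodes GLUT1, the main glucose transporter of basal keratinocytes. It stood at 97.0 and 59.9 CPM in the Krt24/Grem1 gate, 55.7 and 57.9 in Defb6/Krt79, 50.1 and 46.2 in Krtdap/Sostdc1 and 60.0 and 32.1 in Gdf10/Nppc. It stood at 34.7 and 28.5 CPM in Wfdc18/Pthlh, 40.6 and 26.1 in Edn2/Dio3, 34.1 and 19.7 in Fgf5/Fbln5 and 22.7 and 23.6 in Krt25/Krt71. The libraries of the Krt24/Grem1 gate lay above both libraries of every other gate except Gdf10/Nppc, whose replicate 1 reached the lower Krt24/Grem1 value, and the 4 lower gates overlapped each other in part. Against the mean of the other 7 gates, Slc2a1 was higher in Krt24/Grem1 (log2 fold change 1.07 ± 0.25, SE of the fit; adjusted p = 0.00162) and lower in Fgf5/Fbln5 (-0.76 ± 0.23; adjusted p = 0.0134). The Fgf5/Fbln5 value was -0.46 in replicate 1 alone.

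Hk2 (ENSMUSG00000000628, chromosome 6, 82725025 to 82774454, minus strand) encodes hexokinase 2, which phosphorylates glucose and can sit on the outer mitochondrial membrane. Its levels were 82.6 and 73.8 CPM in Krt24/Grem1, 54.0 and 62.4 in Defb6/Krt79, and 42.4 and 48.7 in Krtdap/Sostdc1. They were 17.4 and 25.0 CPM in Wfdc18/Pthlh, 23.8 and 13.7 in Gdf10/Nppc, 11.3 and 5.89 in Krt25/Krt71, 7.0 and 7.0 in Edn2/Dio3 and 4.83 and 9.02 in Fgf5/Fbln5. The 3 highest gates overlapped neither each other nor any other gate, while Wfdc18/Pthlh overlapped Gdf10/Nppc and the 3 lowest overlapped each other. The mean ran 11.3-fold from the lowest to the highest gate. The test called Hk2 higher in Krt24/Grem1 (2.19 ± 0.24, adjusted p = 1.44e-08), Defb6/Krt79 (1.80 ± 0.27, adjusted p = 1.09e-05) and Krtdap/Sostdc1 (1.32 ± 0.28, adjusted p = 0.00186), and lower in Fgf5/Fbln5 (-1.90 ± 0.34, adjusted p = 5.21e-05) and Edn2/Dio3 (-1.85 ± 0.35, adjusted p = 0.000238).

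The same order appears cell by cell. After thinning each cell to 5000 UMIs, Hk2 had at least 1 UMI in 35.3% of 34 cells (95% interval 19.7 to 53.5, exact Clopper-Pearson) and 26.7% of 195 cells (20.6 to 33.5) of the Krt24/Grem1 gate. The shares in Edn2/Dio3 were 2.26% of 265 cells (0.835 to 4.86) and 2.06% of 194 (0.565 to 5.19). Unthinned, 50% and 38.0% stood against 5.10% and 5.05%, with 7369 and 7989 UMIs in the median cell of the first gate and 7725 and 7538 in that of the second. Fibroblasts carried along by the sort, 61 and 41 cells, held 135 and 102 CPM of Hk2, more than any follicle gate. The 6 fibroblast markers summed to 7.18 and 10.5 CPM in the Krt24/Grem1 gate, within the 4.64 to 14.03 of the 6 gates other than Krt25/Krt71, which had 119 and 47.2.

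Gpi1 (ENSMUSG00000036427, chromosome 7, 34201330 to 34230336, minus strand), glucose-6-phosphate isomerase, spanned a 1.62-fold range of gate means. It was lowest in Krt25/Krt71 at 79.3 and 94.4 CPM and in Edn2/Dio3 at 87.8 and 99.7, and highest in Defb6/Krt79 at 137.5 and 144.1. Only Edn2/Dio3 differed from the mean of the other gates (-0.43 ± 0.13, adjusted p = 0.0197).

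Pfkp (ENSMUSG00000021196, chromosome 13, 6579768 to 6648777, minus strand), the platelet-type phosphofructokinase of the committing step, split the gates into a higher and a lower group. It stood at 81.8 and 153.0 CPM in Defb6/Krt79, 102.7 and 101.0 in Gdf10/Nppc, 90.03 and 87.1 in Wfdc18/Pthlh, 86.2 and 84.9 in Krt24/Grem1 and 92.5 and 64.4 in Krtdap/Sostdc1. It stood at 52.1 and 54.1 CPM in Fgf5/Fbln5, 34.5 and 44.6 in Edn2/Dio3 and 28.3 and 41.3 in Krt25/Krt71. All 10 library values of the first 5 gates lay above all 6 of the other 3. The calls were Defb6/Krt79 (1.02 ± 0.18, adjusted p = 0.000203; 0.35 in replicate 1 alone and 1.34 in replicate 2 alone), Gdf10/Nppc (0.78 ± 0.15, adjusted p = 0.000313) and Wfdc18/Pthlh (0.47 ± 0.15, adjusted p = 0.0225), all higher. Lower were Edn2/Dio3 (-0.97 ± 0.18, adjusted p = 0.00022) and Fgf5/Fbln5 (-0.50 ± 0.17, adjusted p = 0.0231). The Wfdc18/Pthlh call was lost under several alternatives, with an adjusted p of 0.0831 by DESeq2 and 0.477 with a stricter gate. The stricter gate also left Krt25/Krt71 and Krtdap/Sostdc1 out of the comparison. Leaving out those gates alone lost the call as well (0.30 ± 0.14, adjusted p = 0.121). The effect of stricter gating therefore cannot be told apart from their loss.

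Pgk1 (ENSMUSG00000062070, chromosome X, 106187100 to 106203699, plus strand), phosphoglycerate kinase, makes the first ATP of the route. It was low in the Krt24/Grem1 gate at 43.1 and 94.8 CPM and in Edn2/Dio3 at 86.6 and 91.6, and reached 143.9 and 148.1 in Fgf5/Fbln5. The 2 libraries of Krt24/Grem1 lay on either side of Edn2/Dio3 and its call (-0.56 ± 0.19, adjusted p = 0.0302) rested mainly on replicate 1, with -1.44 there and -0.31 in replicate 2. Edn2/Dio3 was called lower (-0.53 ± 0.16, adjusted p = 0.0165), with -0.31 and -0.46 in each library alone.

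Ldha (ENSMUSG00000063229, chromosome 7, 46841475 to 46855627, plus strand), the lactate dehydrogenase subunit that favours lactate, was highest in Fgf5/Fbln5 at 332.5 and 308.8 CPM and lowest in Edn2/Dio3 at 201.5 and 175.1. The other 6 gates ranged from 194.6 to 277.5, all below both Fgf5/Fbln5 values. Fgf5/Fbln5 was higher (0.39 ± 0.12, adjusted p = 0.0125) and Edn2/Dio3 lower (-0.45 ± 0.13, adjusted p = 0.0122), so these gates, alike in Hk2 and Angptl4, stood at opposite ends for Ldha. The annotation (GENCODE M21) holds Ldha-ps, Ldha-ps2, Pgk1-ps1, Pgk1-ps3 and Pgk1-rs7, near copies that are not features of the matrices, and how shared reads were counted is not given here.

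Pdk1 (ENSMUSG00000006494, chromosome 2, 71873224 to 71903858, plus strand), the kinase that closes the pyruvate dehydrogenase gate, differed from the other gates in none of the 8. It ranged from 11.6 and 20.6 CPM in Krtdap/Sostdc1 to 26.7 and 35.4 in Fgf5/Fbln5. Replicate 2 was higher in 8 of 8 gates.

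Bnip3 (ENSMUSG00000078566, chromosome 7, 138890836 to 138909519, minus strand), a mitophagy receptor, was a low gene. It had 7.18 and 14.7 CPM in Gdf10/Nppc, 11.6 and 9.90 in Krtdap/Sostdc1, 9.82 and 8.91 in Defb6/Krt79 and 2.57 and 4.01 in Fgf5/Fbln5. It had 3 and 1 UMIs in all of Wfdc18/Pthlh and 2 and 1 in Edn2/Dio3, and a UMI was captured in 0.54% and 0.56% of Wfdc18/Pthlh cells. Thinned to 5000 UMIs, none of 520 and 167 of these cells had one, which allows shares of up to 0.577% and 1.80% of cells with a UMI at that depth and sets no limit on the cells that express the gene. In pooled UMIs the other gates together were 11.4-fold above Wfdc18/Pthlh (95% counting interval 4.35 to 42.5). Those besides Edn2/Dio3 were 7.49-fold above that gate (2.50 to 36.8). The test, against the mean of the other gates, gave -2.85 ± 0.78 in Wfdc18/Pthlh and -2.62 ± 0.83 in Edn2/Dio3 (adjusted p = 0.00741 and 0.0233). Gdf10/Nppc was called higher (1.74 ± 0.41, adjusted p = 0.0032). Krt24/Grem1 was called higher as well (1.67 ± 0.52, adjusted p = 0.0188) from 25 UMIs of replicate 2 (14.5 CPM), while replicate 1 had 0 of 278374 UMIs, which allows up to 10.8 CPM, and its value alone was -2.16. At 0 UMIs that value depends on the small count added before the log.

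Vegfa (ENSMUSG00000023951, chromosome 17, 46016993 to 46032369, minus strand), the vessel growth factor that follicle keratinocytes secrete in anagen, was called in none of the 8 gates. By the mean of both libraries it was lowest in Edn2/Dio3, at 9.03 and 9.85 CPM, and highest in Krt25/Krt71, where replicates 1 and 2 held 5.67 and 35.4 (1 and 6 UMIs) in 21 cells each. Next came Defb6/Krt79 at 21.3 and 14.9 CPM and Krt24/Grem1 at 21.6 and 11.05. The sorted fibroblasts held 124 and 58.2 CPM, above every follicle gate.

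Angptl4 (ENSMUSG00000002289, chromosome 17, 33773750 to 33781830, minus strand), a secreted inhibitor of lipoprotein lipase, varied most of the 10. It stood at 692.8 and 496.8 CPM in Edn2/Dio3, 600.9 and 444.5 in Fgf5/Fbln5, 421.1 and 294.7 in Gdf10/Nppc and 396.6 and 294.9 in Krt25/Krt71. It stood at 153.9 and 75.8 CPM in Defb6/Krt79, 86.5 and 52.3 in Wfdc18/Pthlh, 61.7 and 40.4 in Krtdap/Sostdc1 and 21.6 and 4.07 in Krt24/Grem1, where it rested on 6 and 7 UMIs. The 4 higher gates overlapped none of the 4 lower ones, and Krt24/Grem1 lay below all the rest. Replicate 1 was higher in 8 of 8 gates, by a median of 1.48-fold. Edn2/Dio3 (2.37 ± 0.11, adjusted p = 4.63e-16), Fgf5/Fbln5 (2.13 ± 0.11, adjusted p = 6.84e-16), Gdf10/Nppc (1.69 ± 0.12, adjusted p = 3.78e-12) and Krt25/Krt71 (1.42 ± 0.18, adjusted p = 5.5e-06) were higher. Krt24/Grem1 (-4.63 ± 0.27, adjusted p = 1.91e-14), Krtdap/Sostdc1 (-1.64 ± 0.20, adjusted p = 9.01e-07) and Wfdc18/Pthlh (-1.10 ± 0.15, adjusted p = 9.24e-07) were lower. With a mitochondrial limit of 5%, under which too few cells were left in Krt24/Grem1, Krtdap/Sostdc1, Krt25/Krt71 and Defb6/Krt79, each gate was set against a mean of 3 others in place of 7. The values were then 1.09 in Edn2/Dio3, 1.07 in Fgf5/Fbln5, 0.48 in Gdf10/Nppc and -2.64 in Wfdc18/Pthlh, all called.

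After thinning, Angptl4 had at least 1 UMI in 93.6% and 83.0% of Edn2/Dio3 cells and in 8.82% (95% interval 1.86 to 23.7) and 2.56% (0.838 to 5.88) of Krt24/Grem1 cells. Sorted immune cells, taken here as the comparison for RNA free in the droplets, had none in 10 and 15 cells, which allows up to 30% and 20%. Unthinned, 10% and 13.3% of the immune cells had a UMI, with 10478 and 12026 UMIs in the median cell. The Krt24/Grem1 shares before thinning were 11.1% and 3.29%, so at these cell numbers Angptl4 expression in that gate was not told apart from free RNA.

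Read by gate, the test called 5 of the 10 genes in Krt24/Grem1 (22.9% of all genes tested), 7 in Edn2/Dio3 (18.6%), 5 in Fgf5/Fbln5 (26.7%), 3 in Gdf10/Nppc (15%), 3 in Wfdc18/Pthlh (20.8%), 2 in Krtdap/Sostdc1 (8.58%), 1 in Krt25/Krt71 (1.09%) and 2 in Defb6/Krt79 (10%). Of the 7 in Edn2/Dio3, 6 were lower, where 7.09% of all genes were, and the median log2 value of the 10 genes there was -0.49 beside 0.04 over all genes. In Defb6/Krt79 the median was 0.42 beside 0.05, with both calls higher. In Gdf10/Nppc 15 of 18 immediate early genes, which rise with cell handling, were called higher as well. Their summed level was 30318 and 25305 CPM there, the highest of the 8 non-cycling gates, where the others ranged from 15609 to 26612. Their part in the Bnip3, Pfkp and Angptl4 values of that gate was not tested.

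**Figure D2:**
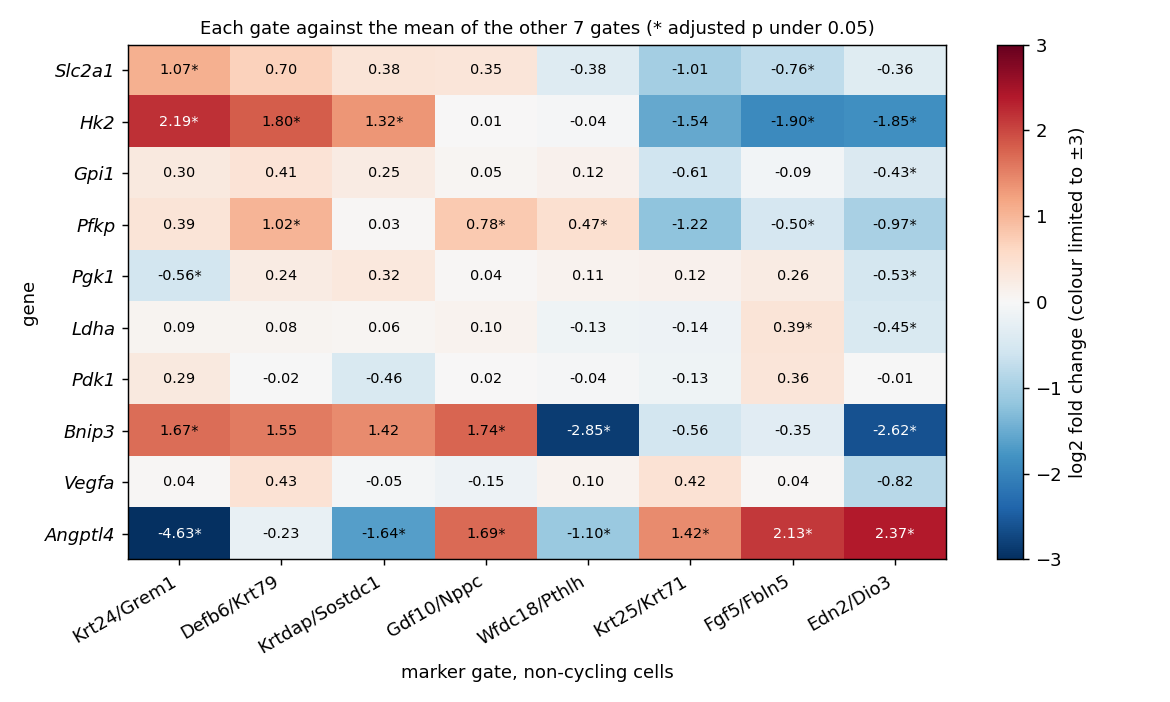
Log2 fold change of each gene (rows) in non-cycling cells of each gate (columns) against the mean of the other 7 gates; colour is limited to 3 either side of 0 and a star marks an adjusted p under 0.05. Hk2 is 2.19 in Krt24/Grem1 and -1.85 in Edn2/Dio3, and Angptl4 is -4.63 and 2.37 in the same gates; the Bnip3 values of Wfdc18/Pthlh and Edn2/Dio3 rest on 4 and 3 UMIs.

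Over the 16 non-cycling sums, with each library centred on its own mean, log2 CPM of Hk2 went with Slc2a1 (Pearson r = 0.85) and against Angptl4 (r = -0.85). Gpi1 and Pfkp went the same way: the 6 pairs among Hk2, Slc2a1, Gpi1 and Pfkp gave r from 0.61 to 0.85, and these 4 genes against Angptl4 gave r from -0.85 to -0.51. Pgk1, Ldha, Pdk1, Bnip3 and Vegfa gave r from -0.52 to 0.42 with the same 4. The points share libraries and gates, so these values describe the 16 sums and carry no p. Among 5306 genes with a mean of at least 20 CPM, those most like Hk2 were S100a13 (r = 0.96), Foxc1 (0.95) and Hspb8 (0.94), and those most like Slc2a1 were Use1 (0.94), H2-T23 (0.90) and Nfatc1 (0.89). Angptl4 was most like Myh9 (0.96), Basp1 (0.96) and Fhod3 (0.95). For Pfkp they were Lpcat2, Myo1e and Mafk (0.90, 0.90 and 0.89), and for Ldha they were Ube2q2, Pgam1 and Anxa5 (0.82, 0.79 and 0.73). Pgam1 encodes a phosphoglycerate mutase, a step of the same route.

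The rest of the glycolytic route was read from a list of 19 other genes, of which 15 were tested and 12 were called in the joint test. In Krt24/Grem1, 4 were higher and 2 lower, and in Edn2/Dio3 2 were higher and 3 lower. Of all genes tested, 49.3% were called in the joint test, 22.9% in Krt24/Grem1 and 18.6% in Edn2/Dio3. Hk1, the housekeeping hexokinase, had the largest fitted change of the list in Krt24/Grem1 (1.71 ± 0.30, adjusted p = 5.65e-05), from 7.18 CPM (2 UMIs) in replicate 1 and 44.2 in replicate 2. It stood at 27.0 and 39.6 CPM in Krtdap/Sostdc1, 14.7 and 20.5 in Gdf10/Nppc, 2.87 and 6.38 in Edn2/Dio3 and 2.57 and 4.01 in Fgf5/Fbln5. Both hexokinases were therefore called higher in Krt24/Grem1 and Krtdap/Sostdc1 and lower in Edn2/Dio3 and Fgf5/Fbln5, on counts of 7 to 12 Hk1 UMIs a library in the latter pair. In other gates they parted. Hk1 was called lower in Wfdc18/Pthlh (-1.76 ± 0.36, adjusted p = 0.000372) and higher in Gdf10/Nppc (0.87 ± 0.27, adjusted p = 0.0261), where Hk2 was not called. Hk2 was called higher in Defb6/Krt79, where Hk1 was not. Slc16a1, the lactate and pyruvate carrier MCT1, was higher in Gdf10/Nppc (33.9 and 41.0 CPM; 1.55 ± 0.24, adjusted p = 1.44e-05). Pgm2, a phosphoglucomutase, which links glycogen to this route, was higher in Fgf5/Fbln5 (29.3 and 29.4 CPM; 1.33 ± 0.22, adjusted p = 1.6e-05) and in Edn2/Dio3 (23.0 and 22.6 CPM; 0.95 ± 0.25, adjusted p = 0.0056). Slc2a3, the GLUT3 transporter, did not pass the expression filter and had at most 6 UMIs in any non-cycling gate and library.

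The other hypoxia genes, 28 listed and 24 tested with 19 called in the joint test, were called in both directions in most gates. In Fgf5/Fbln5 8 were higher and 4 lower, in Gdf10/Nppc 8 and 1, in Edn2/Dio3 7 and 3, in Wfdc18/Pthlh 3 and 5, and in Krt24/Grem1 4 and 5. Of all genes tested, 26.7%, 15%, 18.6%, 20.8% and 22.9% were called in these gates, in the same order, and 49.3% in the joint test. Both HIF alpha subunits were called higher in Gdf10/Nppc. Hif1a was called higher in Wfdc18/Pthlh at 344 and 298 CPM (0.78 ± 0.10, adjusted p = 2.58e-07), in Gdf10/Nppc at 296 and 248 (0.59 ± 0.10, adjusted p = 6.69e-05) and in Krt24/Grem1 at 312.5 and 191 (0.34 ± 0.12, adjusted p = 0.0352). The replicate 1 level of Krt24/Grem1 rested on 87 UMIs in 36 cells. Its replicate 2 level stood beside 177 in Krt25/Krt71 and 160 in Defb6/Krt79. Hif1a was called lower in Fgf5/Fbln5 at 159 and 149 (-0.53 ± 0.11, adjusted p = 0.000313) and in Krtdap/Sostdc1 at 158 and 142 (-0.47 ± 0.13, adjusted p = 0.0206). Edn2/Dio3 stood at 167 and 144 CPM. Epas1 stood at 48.6 and 33.8 CPM in Fgf5/Fbln5 (2.27 ± 0.20, adjusted p = 1.86e-10), 21.9 and 18.9 in Gdf10/Nppc (1.32 ± 0.24, adjusted p = 0.000202) and 6.38 and 4.07 in Wfdc18/Pthlh (-0.94 ± 0.33, adjusted p = 0.0393). Whether the subunits differ from each other in these changes was not tested. Krt24/Grem1 had 2 Epas1 UMIs in all, and in pooled UMIs the other gates together were 19.1-fold above it (95% counting interval 5.25 to 158). The test, against the mean of the other gates, gave -3.40 ± 0.64 (adjusted p = 0.000146).

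Egln3, the prolyl hydroxylase PHD3 that marks HIF for degradation and is itself a HIF target, was higher in Edn2/Dio3 at 94.4 and 104.9 CPM (2.79 ± 0.22, adjusted p = 2.57e-11), where the next gate, Fgf5/Fbln5, had 36.4 and 21.1. Adm, the vasoactive peptide adrenomedullin, was higher in Fgf5/Fbln5 at 33.5 and 11.03 CPM (1.57 ± 0.28, adjusted p = 4.09e-05) and in Edn2/Dio3 at 31.2 and 8.69 (1.44 ± 0.30, adjusted p = 0.000628), and replicate 1 was the higher library in both. Hilpda, an inhibitor of lipid droplet breakdown, was higher in Gdf10/Nppc at 58.7 and 79.5 CPM (1.69 ± 0.17, adjusted p = 7.41e-09). Ndrg1 was higher in Wfdc18/Pthlh at 254 and 207 CPM (1.23 ± 0.20, adjusted p = 1.34e-05) and lower in Fgf5/Fbln5 at 57.3 and 46.5 (-1.34 ± 0.25, adjusted p = 7.69e-05). Plin2, a lipid droplet coat protein, was higher in Defb6/Krt79 at 283 and 208 CPM (2.24 ± 0.16, adjusted p = 4.41e-12), where both libraries lay above the 37.4 to 107.9 of the other gates.

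Pyruvate entry into the mitochondrion was read from 13 genes, 12 of them tested and 7 called in the joint test, where 49.3% of all genes were. Pdk4, a kinase of the same family as Pdk1 that rises with fasting and fatty acid use, stood at 36.1 and 27.8 CPM in Edn2/Dio3, 29.6 and 20.1 in Fgf5/Fbln5 and 22.0 and 12.2 in Wfdc18/Pthlh. It was called higher in each of these 3 (2.76 ± 0.31, 2.32 ± 0.32 and 1.83 ± 0.35; adjusted p = 8.33e-08, 1.12e-06 and 0.000188). In Krt24/Grem1 it had 0 of 1998122 UMIs over both libraries, at least 12.7-fold lower than the 19.0 CPM of the other gates (3 counts over the gate taken as the floor). Krt24/Grem1 was not alone in this, as Krtdap/Sostdc1 had 1 and 0 Pdk4 UMIs and Krt25/Krt71 had 4 and 0. Mpc1 and Mpc2, which form the mitochondrial pyruvate carrier, were higher in Defb6/Krt79 (0.59 ± 0.12 and 0.59 ± 0.12; adjusted p = 0.000539 and 0.00069), and Mpc1 was lower in Krt24/Grem1 (-0.55 ± 0.13, adjusted p = 0.00211).

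**Figure D3:**
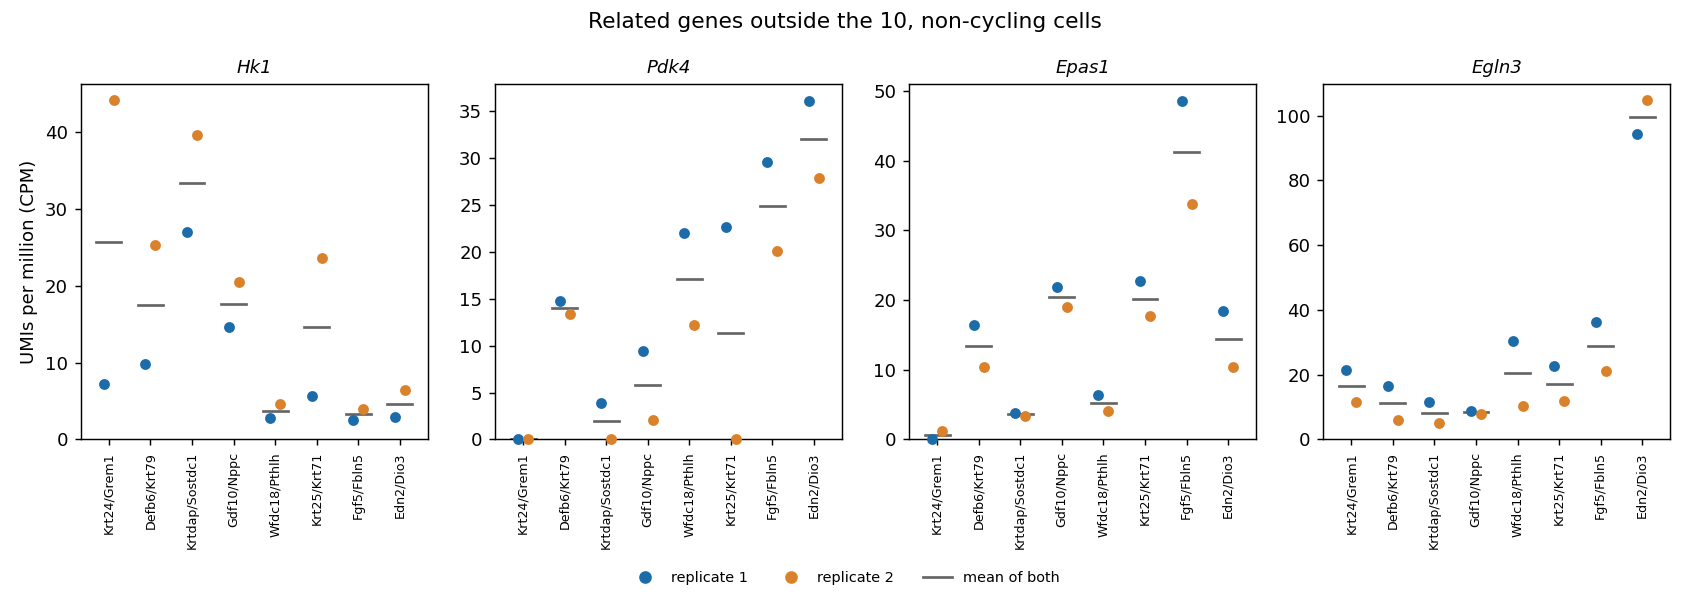
Level of Hk1, Pdk4, Epas1 and Egln3 in CPM (vertical axis from 0, own scale per gene) in non-cycling cells of the 8 gates; points are the 2 libraries and bars their mean. Egln3 reaches 94.4 and 104.9 CPM in Edn2/Dio3, Epas1 48.6 and 33.8 in Fgf5/Fbln5, and Pdk4 is at 0 in both libraries of Krt24/Grem1.

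Cycling cells were compared with non-cycling cells of the same gate, which keeps the gate fixed but not the mixture of cells within it. Non-cycling Krt25/Krt71 cells, for example, held 340 and 820 CPM of the Gdf10/Nppc markers beside 368 and 472 of their own. The part of such mixture in the changes below was not tested. G2/M cells sufficed in 4 gates (Wfdc18/Pthlh, Fgf5/Fbln5, Edn2/Dio3, Krt25/Krt71). Their median depth was 9804 to 19788 UMIs a cell beside 7443 to 10036 in non-cycling cells. In the mean over these gates 1 of the 10 genes was called, where 22.3% of all genes were: Angptl4 was lower in G2/M (-0.66 ± 0.09, adjusted p = 4.91e-07). Angptl4 was at 464.1 and 284.5 CPM in G2/M cells of Fgf5/Fbln5 beside 600.9 and 444.5 in non-cycling ones, and at 470.9 and 392.2 beside 692.8 and 496.8 in Edn2/Dio3. It was at 135.7 and 94.3 CPM beside 396.6 and 294.9 in Krt25/Krt71, and at 92.4 and 44.3 beside 86.5 and 52.3 in Wfdc18/Pthlh. In Krt25/Krt71 and Edn2/Dio3 the cycling and non-cycling libraries did not overlap, in Fgf5/Fbln5 they did, and in Wfdc18/Pthlh the G2/M level was above the non-cycling one in replicate 1 and below it in replicate 2 (scaled log2 values -0.015 and -0.41). By gate the test called Angptl4 in Krt25/Krt71 (-1.49 ± 0.21, adjusted p = 1.3e-05; 8.17% of all genes called) and Fgf5/Fbln5 (-0.55 ± 0.15, adjusted p = 0.0171; 8.35%).

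The Krt25/Krt71 gate holds only 21 non-cycling cells a library. An alternative added after the data were seen left out that gate and the Krtdap/Sostdc1 gate, which is mostly replicate 2. It called 4 of the 10 genes, all lower in G2/M: Angptl4 (-0.39 ± 0.10, adjusted p = 0.00284), Pfkp (-0.54 ± 0.13, adjusted p = 0.00279), Gpi1 (-0.32 ± 0.09, adjusted p = 0.00891) and Pdk1 (-0.40 ± 0.14, adjusted p = 0.0352). The share of all genes called in this alternative is not given here, so the count of 4 cannot be set against it. With all gates, Pfkp (-0.40, adjusted p = 0.0887), Gpi1 (-0.15, adjusted p = 0.36) and Pdk1 (-0.36, adjusted p = 0.138) missed the threshold. Pfkp stood at 56.9 and 62.6 CPM in G2/M cells of Wfdc18/Pthlh beside 90.03 and 87.1 in non-cycling ones, with no overlap (-0.70 ± 0.19, adjusted p = 0.0148; 10.5% of all genes called). In Edn2/Dio3 it stood at 27.7 and 20.8 beside 34.5 and 44.6. Ldha, Pgk1 and Hk2 were not called with or without these gates, and the Pgk1 value with all gates was 0.25 ± 0.11 (adjusted p = 0.106).

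**Figure D4:**
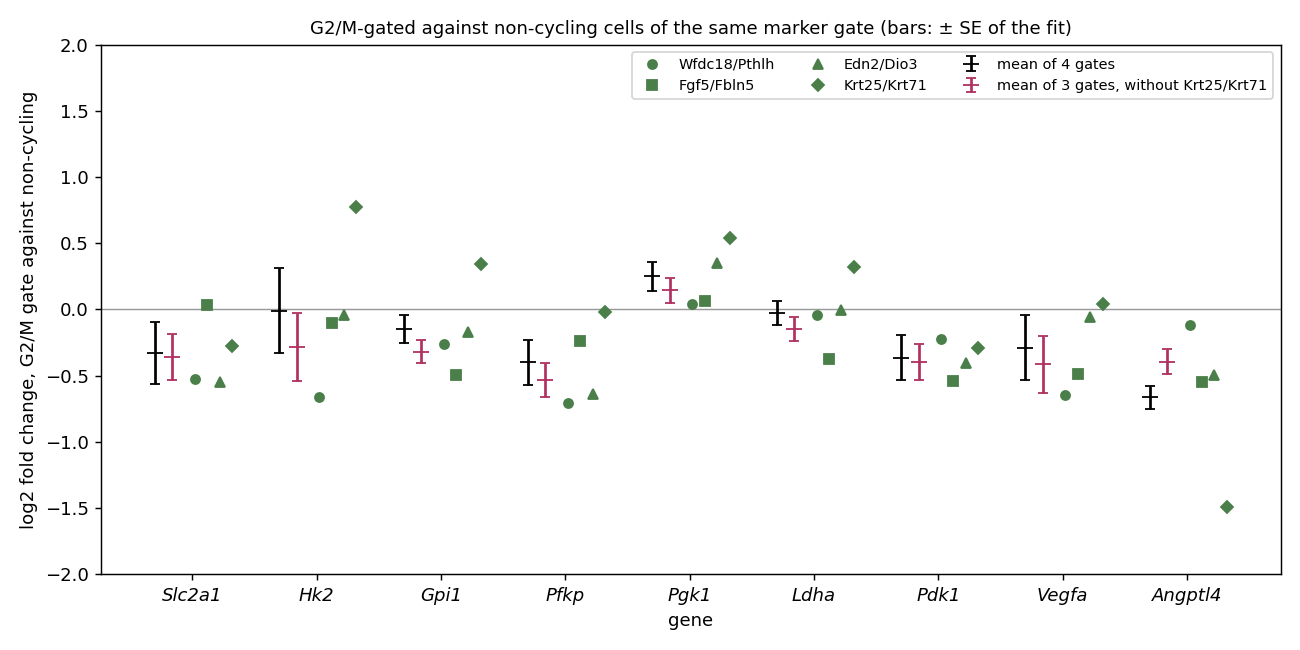
Log2 fold change of 9 genes in G2/M-gated against non-cycling cells of the same marker gate; bars give the fitted mean with its SE over 4 gates (black) and over 3 gates without Krt25/Krt71 (red), and green symbols give each gate's fitted value. Angptl4 is -0.66 over 4 gates and -0.39 over 3. Bnip3, with at most 3 UMIs in any G2/M sum, is not drawn.

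S cells sufficed in 3 gates (Wfdc18/Pthlh, Fgf5/Fbln5, Edn2/Dio3). Of the 10 genes edgeR called 0 between S and non-cycling cells, where it called 3.59% of all genes; 1 had an unadjusted p under 0.05 and DESeq2 called 0. That gene was Vegfa (-1.10 ± 0.33, adjusted p = 0.057), at 3.61 and 4.94 CPM in S cells of Edn2/Dio3 beside 9.03 and 9.85, at 10.1 and 0 in Fgf5/Fbln5 beside 20.3 and 11.7, and at 12.5 and 13.02 in Wfdc18/Pthlh beside 18.4 and 12.2. The S cells held 1107653 and 404973 UMIs of all genes in Edn2/Dio3 and 592062 and 467707 in Fgf5/Fbln5. Their Vegfa levels therefore rest on few UMIs. Between G2/M and S cells 1 of the 10 was called (7.68% of all genes), again Angptl4, lower in G2/M (-0.41 ± 0.10, adjusted p = 0.00546). Whether the G2/M change differed between Wfdc18/Pthlh and Fgf5/Fbln5 was tested as an interaction. It called 0 of the 10 and 0 of all genes, with 0 of the 10 and 462 of all genes at an unadjusted p under 0.05, and DESeq2 called 0.

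Of the 15 other glycolysis genes tested, 3 were lower and 1 higher in G2/M, where 22.3% of all genes were called either way. Aldoa, fructose-bisphosphate aldolase A, fell from 343 and 293 CPM to 195 and 152 in Wfdc18/Pthlh, from 361 and 334 to 150 and 150 in Fgf5/Fbln5, from 214 and 212 to 140 and 150 in Edn2/Dio3 and from 215 and 307 to 138 and 138 in Krt25/Krt71. Every G2/M library lay below every non-cycling library of its gate (-0.91 ± 0.08, adjusted p = 2.78e-10), and Aldoa was also lower in G2/M than in S (-0.77 ± 0.09, adjusted p = 2.22e-07). A second feature of the same symbol had 0 UMIs in the 8 non-cycling gates. Slc16a1 (-1.09 ± 0.32, adjusted p = 0.0132) and Hk1 (-2.32 ± 0.49, adjusted p = 0.000604, on at most 9 UMIs in any G2/M sum) were lower too. Of the 24 other hypoxia genes tested, the 5 called are a share below the 22.3% of all genes called either way. The share of all genes called lower is not given here. Of these hypoxia genes 0 were higher and 5 lower, Plin2 the most (-0.77 ± 0.16, adjusted p = 0.000562). Immediate early genes moved the same way, with 10 of 18 lower in G2/M, and their part in these values was not tested.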

How the data were processed

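The authors deposited raw counts, whole numbers of UMIs per gene and barcode in 10x matrices, made with Cell Ranger 3.1.0 on mm10 per the submitters' processing notes, which also name Seurat 3.1; no source used here names the gene models. The libraries hold 6592 and 5080 barcodes with 52344178 and 38678103 UMIs. Cells under 1000 genes or over 10% mitochondrial UMIs were dropped. Free RNA was not removed. Doublets were kept, since Scrublet's automatic threshold marked 0 and 1 cells and so did not work; removing its top 348 and 206 cells was an alternative.

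Cells with at least 3 markers of another cell type, or under 5 Krt5 and Krt14 UMIs per 10000, were set aside (3.16% and 2.70%). The rest took the state with the highest mean standardised marker score, if at least 0.5 and 0.25 above the next; 455 and 255 cells lay within 0.1 of that minimum. Marker genes of a gate are not results. Counts were summed per gate, phase and library with at least 20 cells in each library, giving 30 sums, and fitted in edgeR 4.0.16 (R 4.3.3; TMM, filterByExpr, quasi-likelihood, two-sided) with a library term, since every gate came from both libraries; 14 residual degrees of freedom and 10109 genes remained. Log2 values are relative to the other gates after this scaling. Log2 values for a single library are not fitted. They are differences of scaled log2 CPM within that library, with a small count added, so they need not average to the fitted value. CPM levels use the summed counts. A 3′ kit counts molecules, so levels carry no length. Intervals (95%) and floors (3 counts) cover counting error only. The procedure was tested on simulated data. DESeq2 1.42.0, scanpy 1.11.5, scipy 1.17.1, numpy 2.4.6 and Python 3.11.15 were also used; coordinates come from GENCODE M21. All 10 genes are given; from each other list the up to 3 genes with the largest called change per comparison may be named, and Hif1a, Slc2a3 and the levels of genes in further gates were chosen after their values were seen. The genes and lists were chosen with earlier results of these data known.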

Additional observations from a re-analysis of the deposited data

Results flagged for a closer look

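For Gpi1 and Ldha the difference between G2/M and non-cycling cells had opposite signs in different gates, but in no single gate was it called. For Gpi1 the fitted log2 values were 0.34 in Krt25/Krt71, -0.26 in Wfdc18/Pthlh, -0.50 in Fgf5/Fbln5 and -0.17 in Edn2/Dio3 (adjusted p = 0.568, 0.346, 0.0692 and 0.745). For Ldha they were 0.32, -0.042, -0.37 and -0.0068 (adjusted p = 0.45, 0.934, 0.19 and 1). In the scaled log2 CPM of each library alone, Gpi1 was higher in G2/M than in non-cycling cells in both libraries of the Krt25/Krt71 gate and lower in both libraries of the other 3 gates. The Krt25/Krt71 value exceeded that of Wfdc18/Pthlh by 0.604 on the log2 scale, that of Fgf5/Fbln5 by 0.838 and that of Edn2/Dio3 by 0.509. Ldha was likewise higher in both libraries of Krt25/Krt71, with a value 0.693 above that of Fgf5/Fbln5 and 0.329 above that of Edn2/Dio3, where both libraries were lower; in Wfdc18/Pthlh the libraries differed in sign (0.062 and -0.26). The differences between gates were not tested, and the Krt25/Krt71 gate has 21 non-cycling cells in each library.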

How the results depend on the processing

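Of the recomputed values for comparisons and single genes, 525 kept their direction and their side of the threshold or stayed within the limits set, 36 moved, 34 lost a call, 20 gained one and 2 reversed. Every alternative that tested the gate called Hk2 higher in Krt24/Grem1 and Angptl4 lower there, and every tested alternative called Angptl4 higher in Edn2/Dio3 and Fgf5/Fbln5. The 5% mitochondrial limit left 4 non-cycling gates, without Krt24/Grem1, and gave 1.30 for Pfkp in Gdf10/Nppc and -1.15 for Hk2 in Fgf5/Fbln5, both called. In Fgf5/Fbln5 thinning to 5000 UMIs, which also left non-cycling Krt25/Krt71 cells out of the fit, gave -1.27 for Slc2a1 and -0.81 for Pfkp, both called. The cause of each change below was not tested. The 2 reversals were Bnip3 in Krt24/Grem1, -2.16 without replicate 2 and 1.67 without replicate 1, and Hk2 in G2/M, 0.31 with cells thinned to 5000 UMIs (not called in either setting). With 1 library left there is no residual spread, so the Bnip3 values have no test. The value without replicate 2 rests on no Bnip3 UMI in Krt24/Grem1 and so on the small count added before the log.

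Without the replicate block, that is without pairing the gates by library, the joint test called 5 of the 10 genes in place of 8, Fgf5/Fbln5 2 in place of 5, Edn2/Dio3 4 in place of 7 and G2/M against S 0 in place of 1. All genes called were then 834 for Gdf10/Nppc, 1162 for Edn2/Dio3, 524 for Krtdap/Sostdc1, 69 for Krt25/Krt71, 240 for S and 444 for G2/M against S. The count of the 10 genes called between G2/M and non-cycling cells, 1 in the main design, was 3 after thinning to 5000 UMIs, 5 in cells under 20000 UMIs, 2 with cycling gates set after thinning, 4 with a mitochondrial limit of 5%, 4 with stricter state gates, 5 with the top Scrublet cells removed and 4 without the Krt25/Krt71 and Krtdap/Sostdc1 gates. In each of these but the cycling gates set after thinning, Krt25/Krt71 had too few cells or was left out and so dropped from the mean, and the effect of the named choice cannot be told apart from the loss of that gate. Between S and non-cycling cells it was 1 in place of 0 in cells under 20000 UMIs, with no filter on low counts, with stricter gates, with the top Scrublet cells removed and without those 2 gates; stricter gates also lost Edn2/Dio3 from the S cells. Thinning to 5000 UMIs left 3 of the 10 in Krt24/Grem1 and 1 in Wfdc18/Pthlh, and 511 genes in all for Krtdap/Sostdc1, 410 for Defb6/Krt79, 1458 for G2/M, 218 for S and 474 for G2/M against S. Cells under 20000 UMIs gave 2 of the 10 between G2/M and S, and 1 gene in the interaction of Wfdc18/Pthlh and Fgf5/Fbln5. Cycling gates set after thinning gave 3 of the 10 and 661 genes in Krt25/Krt71, 0 of the 10 and 366 genes between G2/M and S, and 1 gene in the interaction. They left too few S cells in Fgf5/Fbln5, so the comparison of G2/M with S lost that gate. The 5% mitochondrial limit gave 3240 genes in the joint test, 762 in Edn2/Dio3 and 5 in the interaction. No filter on low counts gave 204 genes in Krt25/Krt71 and 19 in the interaction, and DESeq2 200 in Krt25/Krt71. Stricter gates gave 1355 genes for G2/M, 133 for S and 341 for G2/M against S. Where a count of the 10 stands here without one of all genes, it cannot be set against the call rate of that alternative. Depth limits Bnip3, Hk1 and Pdk4, and the Krt24/Grem1 gate of replicate 1 with 36 non-cycling cells.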

Other observations

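Angptl4 was higher in replicate 1 in 8 of 8 non-cycling gates, with ratios of 1.35 to 5.30, and Pdk1 was higher in replicate 2 in 8 of 8, with ratios of replicate 1 to replicate 2 of 0.56 to 0.95. The median mitochondrial share was higher in replicate 1 as well, from 5.27% to 6.57% a gate against 3.82% to 4.79%. With 1 library on each side there is no test of a difference between them. In sorted fibroblasts Angptl4 was also higher in replicate 1, at 266 beside 74.7 CPM, and Slc2a1, at 9.94 and 8.96 CPM, was below every follicle gate.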
